A study of Mus musculus with 18 samples.

Results

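The suppressors of cytokine signalling (SOCS) family of the mouse comprises *Cish* and *Socs1* to *Socs7*. These 8 genes were found by their symbols among the 62197 rows of a table of gene expression in dendritic cells (DCs), and each symbol had 1 row. All 8 reached 10 normalized counts in 3 or more libraries, the condition for a test, which 17875 genes met. SOCS proteins carry an SH2 domain, which binds phosphorylated tyrosines of cytokine receptors or JAK kinases, and a C-terminal SOCS box, which binds elongins B and C and a cullin to form a ubiquitin ligase. Cytokines activate JAK kinases and STAT factors, STAT factors induce several SOCS genes, and the proteins made from them then restrain the same receptors, which closes a negative feedback loop. In DCs, SOCS1 is known for restraining the response to interferons, and SOCS3 for restraining receptors that signal through gp130, such as that of IL-6.

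The data are bulk RNA-seq of DCs grown for 10 days from mouse bone marrow in medium with GM-CSF, and the study asked how a loss of cell height changes DCs and whether cPLA2, the phospholipase encoded by *Pla2g4a*, is needed for it. There were 6 conditions with 3 libraries each, 18 libraries in all. According to the Methods, bone marrow came from mice 6 to 8 weeks old, and cPLA2KO animals carried a floxed *Pla2g4a* and Cre under the promoter of *Itgax* (CD11c), so that deletion is limited to cells in which this promoter has been active. Nonconfined cPLA2WT and nonconfined cPLA2KO cells were untreated and collected at the end of culture. Confined cPLA2WT and confined cPLA2KO cells were held at a height of 3 µm and collected 4 h later. The cells of the groups LPS cPLA2WT and LPS cPLA2KO received 100 ng/ml lipopolysaccharide, a bacterial ligand of TLR4, for 30 min according to the sample labels, were washed and were left until the next day. The protocol text in the labels names LPS for all 18 samples, whereas titles and treatment entries name it for the LPS groups alone, and the latter were followed. The study calls the libraries of a group biological replicates, and the labels do not say whether they came from separate mice or cultures, so p-values measure the spread between these libraries. Reads counted on genes numbered 33027230 to 61300021 per library (median 40950398). In units of normalized counts 1 read was worth between 0.762 and 1.23, so that counting error was small beside the levels of the SOCS genes, the lowest of which was 818 counts.

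The gene targeted in the knockout was examined first. *Pla2g4a* had 697, 686 and 770 normalized counts in nonconfined cPLA2WT libraries and 548, 542 and 533 in nonconfined cPLA2KO libraries. It had 1369, 1430 and 1321 in confined cPLA2WT libraries and 923, 871 and 920 in confined cPLA2KO libraries. In the LPS libraries labelled cPLA2WT it had 1005, 969 and 967, and in those labelled cPLA2KO 1065, 1032 and 1028. *Pla2g4a* was thus lower, although present, in the nonconfined and confined libraries labelled cPLA2KO, and it was not lower in the LPS libraries with that label. The log2 difference of cPLA2KO from cPLA2WT was -0.41 (SE 0.06, adjusted p = 0.00019) in nonconfined, -0.60 (SE 0.06, adjusted p = 3.81e-08) in confined and 0.09 (SE 0.06, adjusted p = 1.0) in LPS libraries. A count for the whole gene cannot tell whether the floxed exons were missing.

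A gene of the Y chromosome, *Ddx3y*, separated the genotype labels in nonconfined and confined libraries but not in LPS libraries. Each nonconfined and confined library labelled cPLA2WT had at most 3.05 normalized counts of it, and each such library labelled cPLA2KO had at least 874. In the LPS libraries it had 1271, 0.0 and 662 counts under the label cPLA2WT and 2.12, 1476 and 783 under the label cPLA2KO. The Y-linked *Eif2s3y* had the same order, with 799, 1.83 and 448 counts in LPS cPLA2WT and 2.12, 863 and 505 in LPS cPLA2KO libraries. By *Ddx3y*, 3 of the 6 LPS libraries were nearer to the level of their own label elsewhere and 3 to that of the other label, and they are called by label below. Between the labels of LPS libraries, limma found 0 of 17875 genes at an adjusted p under 0.05, with 890 genes at an unadjusted p under 0.05, and edgeR and DESeq2 found 0 each. The spread within a label, on which these tests rest, includes the differences among LPS libraries that *Ddx3y* shows. By read counts of all genes, LPS cPLA2WT replicate 2 was closer to LPS cPLA2KO replicate 1 (mean chi-square per gene 4.8) than to the other libraries of its label (38.0 and 14.3). Likewise LPS cPLA2WT replicate 3 was closer to LPS cPLA2KO replicate 3 (5.7) than to those of its label (10.7 and 14.3). LPS cPLA2WT replicate 1 and LPS cPLA2KO replicate 2 were closest to replicate 3 of their own label (10.7 and 8.8). For LPS the average over both labels was used, which does not depend on how the labels were assigned. The *Xist* RNA had 12153 to 24835 normalized counts in nonconfined and confined cPLA2KO libraries and 22734 to 33681 in those of cPLA2WT, so the cPLA2KO libraries held both Y-linked and *Xist* transcripts. In nonconfined and confined cells, genotype and the sex or identity of the marrow donors cannot be told apart.

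*Socs3* encodes the inhibitor of gp130 receptors and of the G-CSF receptor, and its mRNA differed most among conditions within the family. It had 4343, 3920 and 4171 normalized counts in nonconfined cPLA2WT libraries and 41187, 38353 and 39960 in confined cPLA2WT libraries. In nonconfined cPLA2KO libraries it had 4204, 4296 and 4486 counts, and in confined cPLA2KO libraries 5931, 5564 and 5759. In the LPS libraries it had 54402, 49307 and 49895 counts under the label cPLA2WT and 47609, 53803 and 51136 under the label cPLA2KO. The confined cPLA2WT and all LPS libraries were high, the confined cPLA2KO libraries lay just above the nonconfined ones, and no library of these 3 levels overlapped with another level. The mean rose from 4144 ± 213 (SD, n = 3) to 39834 ± 1421 (SD, n = 3) with confinement in cPLA2WT cells, a 9.61-fold change (log2 3.265, SE 0.05, adjusted p = 8.1e-22, higher in 3 of 3 libraries). In cPLA2KO cells it rose from 4329 ± 143 (SD, n = 3) to 5751 ± 184 (SD, n = 3), a 1.33-fold change (log2 0.41, SE 0.05, adjusted p = 1.38e-06). The response of cPLA2KO cells minus that of cPLA2WT cells, the interaction of confinement and genotype, was -2.855 on the log2 scale (SE 0.07, adjusted p = 1.05e-17). Against nonconfined cells, LPS libraries were higher over both labels (log2 3.59, SE 0.04, adjusted p = 8.05e-26).

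*Socs1* encodes the inhibitor of JAK kinases best known from interferon signalling. It had 4420, 3984 and 4147 normalized counts in nonconfined and 8569, 8091 and 8036 in confined cPLA2WT libraries. In cPLA2KO libraries it had 4698, 4074 and 4783 counts without and 3923, 3846 and 3665 with confinement. The LPS libraries had 10056, 9003 and 9059 counts under the label cPLA2WT and 9000, 9905 and 9082 under the label cPLA2KO. *Socs1* was therefore high in confined cPLA2WT and LPS libraries, whereas the confined cPLA2KO libraries lay below all nonconfined ones. The confined cPLA2WT libraries were 1.97-fold higher than their nonconfined counterparts (log2 0.98, SE 0.06, adjusted p = 1.22e-11), and the cPLA2KO libraries fell by 0.24 on the log2 scale (SE 0.06, adjusted p = 0.00276). The interaction was -1.22 (log2, SE 0.09, adjusted p = 3.38e-10). With LPS, *Socs1* rose 2.15-fold (log2 1.11, SE 0.04, adjusted p = 1.05e-15).

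*Cish* encodes CIS, which is induced by STAT5 and binds receptors that activate STAT5, such as that of GM-CSF. It had 15358, 13996 and 14359 normalized counts in nonconfined and 19298, 17473 and 18935 in confined cPLA2WT libraries. In cPLA2KO libraries it had 15277, 14195 and 14434 counts without and 13976, 13049 and 13710 with confinement. The LPS libraries had 24445, 25515 and 25120 counts under the label cPLA2WT and 25698, 25472 and 26145 under the label cPLA2KO. Nonconfined libraries of both genotypes overlapped, the confined cPLA2WT libraries stood above them, and the LPS libraries were higher still. *Cish* rose 1.27-fold with confinement in cPLA2WT cells (log2 0.35, SE 0.05, adjusted p = 1.23e-06). In cPLA2KO cells the difference was -0.11 (log2, SE 0.05) and missed the threshold (adjusted p = 0.0612), although each confined library was below each nonconfined one. This value passed with other scalings, with an adjusted p of 0.0375 after TMM scaling. The interaction was -0.46 (log2, SE 0.07, adjusted p = 1.28e-05), and the rise with LPS was 1.74-fold (log2 0.80, SE 0.03, adjusted p = 1.98e-15). The sizes of these values of *Cish* depend on the scaling. A common total per library moved the median of the 8 genes from 0.277 to 0.052 for confinement in cPLA2WT cells. That of the interaction moved from -0.208 to -0.019, and that of LPS from 0.687 to 0.19.

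*Socs2*, which encodes the inhibitor of growth hormone receptor signalling and is also induced by STAT5, took another course. It had 6122, 6201 and 6139 normalized counts in nonconfined and 4049, 3866 and 3902 in confined cPLA2WT libraries. In cPLA2KO libraries it had 5794, 5529 and 5477 counts without and 3538, 3421 and 3534 with confinement. The LPS libraries had 10196, 9356 and 9819 counts under the label cPLA2WT and 9206, 10882 and 9975 under the label cPLA2KO. Confined libraries of both genotypes were therefore low and LPS libraries high, with the nonconfined ones between them and no overlap among the 3 treatments. *Socs2* fell by 0.64 on the log2 scale in cPLA2WT cells (SE 0.05, adjusted p = 5.06e-10) and by 0.68 in cPLA2KO cells (SE 0.05, adjusted p = 5.13e-10). The interaction was -0.04 (log2, SE 0.07, adjusted p = 0.779), and with a common total per library it was 0.15. With LPS, *Socs2* rose 1.68-fold (log2 0.75, SE 0.04, adjusted p = 3.14e-14).

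**Figure D1:**
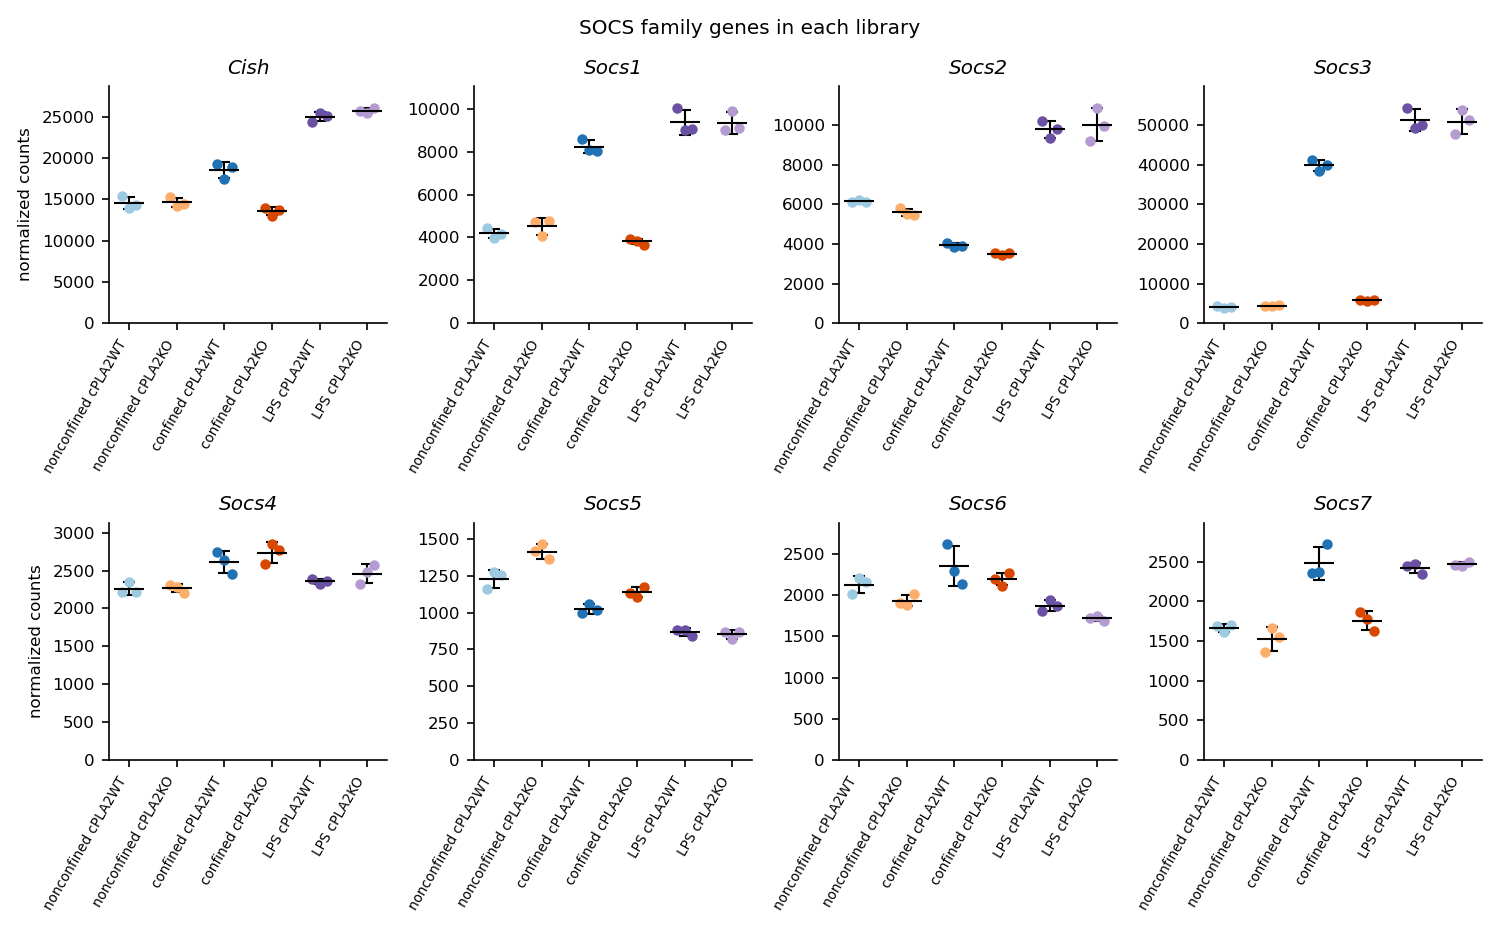
Normalized counts (vertical axes, from 0) of each SOCS family gene in the 6 conditions (horizontal axes), with points for the 3 libraries of a condition, a bar for their mean and error bars of 1 SD. *Socs3* lies between 38353 and 41187 counts in confined cPLA2WT libraries and between 5564 and 5931 in confined cPLA2KO libraries, and *Socs2* is low in confined libraries of both genotypes.

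*Socs4* to *Socs7* encode the members with long N-terminal regions, among which SOCS4 and SOCS5 are known for acting on the EGF receptor. *Socs7* ranged from 1360 to 1699 normalized counts in nonconfined libraries, from 2356 to 2726 in confined cPLA2WT, from 1627 to 1867 in confined cPLA2KO and from 2352 to 2501 in LPS libraries. It rose 1.49-fold in confined cPLA2WT cells (log2 0.57, SE 0.07, adjusted p = 3.83e-07), and in cPLA2KO cells, where libraries overlapped, 1.15-fold (log2 0.21, SE 0.07, adjusted p = 0.0188). The latter call was lost when nonconfined cPLA2KO replicate 1 (log2 0.13), confined cPLA2KO replicate 1 (log2 0.16) or confined cPLA2KO replicate 2 (log2 0.20) was left out, in a fit of these conditions alone (adjusted p = 0.0664) and with a common total per library (log2 0.17, adjusted p = 0.0595). The interaction of *Socs7* was -0.37 (log2, SE 0.10, adjusted p = 0.0081), and -0.18 (adjusted p = 0.187) with a common total per library. *Socs5* fell by 0.26 on the log2 scale in cPLA2WT cells (SE 0.06, adjusted p = 0.000524), by 0.31 in cPLA2KO cells (SE 0.06, adjusted p = 0.000133) and by 0.62 with LPS (SE 0.04, adjusted p = 8.95e-12). Its values were 1158 to 1467 counts in nonconfined, 996 to 1177 in confined and 818 to 884 in LPS libraries.

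*Socs4* had 2207 to 2354 normalized counts in nonconfined, 2452 to 2850 in confined and 2319 to 2571 in LPS libraries. It rose by a log2 change of 0.205 (SE 0.05, adjusted p = 0.00248) in confined cPLA2WT cells, a direction that turned to -0.02 with a common total per library, and of 0.27 (SE 0.05, adjusted p = 0.000265) in confined cPLA2KO cells. *Socs6* had 1884 to 2216 counts in nonconfined, 2120 to 2626 in confined and 1687 to 1947 in LPS libraries. Its log2 change was 0.14 (SE 0.06, adjusted p = 0.0593) in cPLA2WT cells, which turned to -0.08 with a common total and passed with TMM scaling (log2 0.17, adjusted p = 0.0233), edgeR and DESeq2, and 0.18 (SE 0.06, adjusted p = 0.022) in cPLA2KO cells. The latter call was lost without nonconfined cPLA2KO replicate 1 (log2 0.17) or replicate 2 (log2 0.16) and without confined cPLA2KO replicate 3 (log2 0.16), and with a common total (log2 0.145, adjusted p = 0.0571). With LPS the log2 change of *Socs4* was 0.09 (SE 0.04, adjusted p = 0.0429), a call that ended in 5 other fits and in 7 fits with a library left out and whose direction turned to -0.41 with a common total, and *Socs6* fell by 0.18 (SE 0.04, adjusted p = 0.00126). The interactions of *Socs4*, *Socs5* and *Socs6* were 0.07 (SE 0.08, adjusted p = 0.576), -0.05 (SE 0.08, adjusted p = 0.712) and 0.04 (SE 0.09, adjusted p = 0.796) on the log2 scale, and with a common total that of *Socs5* turned to 0.14 (adjusted p = 0.213) while those of *Socs4* (0.256, adjusted p = 0.0107) and *Socs6* (0.228, adjusted p = 0.0433) passed.

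Counted over the family, 7 of the 8 genes passed the test in confined against nonconfined cPLA2WT cells, 5 higher and 2 lower, and 56.6% of all tested genes passed it too. An absolute log2 fold change above 1 was reached by *Socs3* alone, at a share of 19.0% of all genes, and *Socs1* lay just under it and passed it with TMM scaling and with edgeR, which gave 2 genes, as did the fit without nonconfined cPLA2WT replicate 1. In cPLA2KO cells 7 of 8 passed, 4 higher and 3 lower, against 46.3% of all genes, and 2 higher and 4 lower did so with a common total per library. The interaction passed for *Cish*, *Socs1*, *Socs3* and *Socs7*, 4 of 8 genes against 25.8% of all genes, each with a negative sign, and for *Socs1* and *Socs3* it exceeded an absolute log2 of 1, against 7.67% of all genes. With a common total the interaction passed for 3 genes with a negative and 2 with a positive sign, and for 1962 and 4741 of all 17875 genes. The median log2 fold change of the 8 genes was 0.28 in cPLA2WT and 0.04 in cPLA2KO cells, beside -0.005 and 0.01 over all genes, and the median interaction was -0.21 beside 0.05. With a common total these 3 medians of the 8 genes were 0.052, 0.001 and -0.019. Giving each library a common total moved the median of all genes to -0.23 for confined against nonconfined cPLA2WT cells, to 0.24 for the interaction, to 0.19 for cPLA2KO against cPLA2WT confined cells and to -0.46 for LPS. The deposited normalized totals were 33981771 to 35275710 in nonconfined, 39247553 to 40632662 in confined cPLA2WT, 35218120 to 36333185 in confined cPLA2KO and 47902483 to 49506497 in LPS libraries.

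Genotypes were also compared within a treatment. In nonconfined cells 1 of 8 genes passed, *Socs5*, against 8.88% of all genes, with a log2 difference of 0.20 (SE 0.06, adjusted p = 0.0303) for cPLA2KO over cPLA2WT. That call was lost in a fit of these conditions alone (adjusted p = 0.068) and without nonconfined cPLA2WT replicate 1 (log2 0.16) or 3 (log2 0.22) or nonconfined cPLA2KO replicate 1 (log2 0.20) or 2 (log2 0.18), which left 0 of 8 genes in limma. With a common total it was lost as well (log2 0.17, adjusted p = 0.0808), and 1 other gene passed, with a lower value. In confined cells 6 of 8 genes passed against 39.4% of all genes, with *Socs1* (log2 -1.11, SE 0.06, adjusted p = 2.5e-12) and *Socs3* (log2 -2.79, SE 0.05, adjusted p = 1.42e-20) beyond an absolute log2 of 1, which 10.1% of all genes reached. Of the 6 genes 5 were lower and 1 higher in cPLA2KO cells, 4 and 2 with a common total, and 5 and 0 with TMM scaling. *Cish* and *Socs7* were lower in confined cPLA2KO cells by log2 values of -0.45 (SE 0.05, adjusted p = 6.45e-08) and -0.50 (SE 0.07, adjusted p = 5.68e-06), without overlap of the libraries. *Socs2* was lower by a log2 value of -0.17 (SE 0.05, adjusted p = 0.0103), which was -0.016 (adjusted p = 0.789) with a common total. *Socs5* was higher by 0.15 (SE 0.06, adjusted p = 0.039), a call that was lost with TMM scaling (log2 0.124), edgeR (log2 0.123) and DESeq2 (log2 0.14). The call was also lost without a filter (adjusted p = 0.0538). The same held without confined cPLA2KO replicate 1 (log2 0.155) or 3 (log2 0.13) and without confined cPLA2WT replicate 1 (log2 0.133) or 3 (log2 0.15).

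LPS libraries, averaged over the labels, differed from nonconfined ones in 8 of 8 genes against 71.5% of all genes, with 6 higher and 2 lower, and 5 higher and 3 lower with a common total. *Socs1* and *Socs3* exceeded an absolute log2 of 1, against 29.0% of all genes. A common total moved the median of the 8 genes from 0.69 to 0.19. *Socs1* (1.11) and *Socs5* (-0.62) lie within that shift of the cut, so which genes exceed it depends on the scaling. By label the change of *Socs3* against nonconfined cells was 3.63 (log2, SE 0.05, adjusted p = 6.77e-23) for LPS cPLA2WT and 3.55 (log2, SE 0.05, adjusted p = 1.09e-22) for LPS cPLA2KO libraries, and that of *Socs1* was 1.16 (SE 0.06, adjusted p = 3.59e-13) and 1.05 (SE 0.06, adjusted p = 2.17e-12). *Socs7* rose 1.54-fold over both labels (log2 0.62, SE 0.05, adjusted p = 2.12e-10). Within a genotype label, confined and LPS libraries were compared with the same nonconfined libraries. The average over both labels used the nonconfined libraries of both.

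Confined and LPS-treated cells were set side by side, although they were collected at 4 h and on the next day. Confined cPLA2WT libraries differed from LPS libraries in 7 of 8 genes, 3 higher and 4 lower, against 54.3% of all genes, and 4 higher and 2 lower did so with a common total. A common total moved the median of all genes from -0.01 to 0.27 in this comparison and from 0.03 to 0.46 in that of confined cPLA2KO with LPS libraries. *Socs2* was the gene beyond an absolute log2 of 1 (log2 -1.33, SE 0.04, adjusted p = 3.79e-16), against 14.8% of all genes. *Socs3* was lower than in LPS libraries by a log2 value of -0.36 (SE 0.05, adjusted p = 8.2e-07), which was -0.07 (adjusted p = 0.132) with a common total, *Cish* by -0.45 (SE 0.04, adjusted p = 3.69e-09), and *Socs1* by -0.18 (SE 0.05, adjusted p = 0.0063), which turned to 0.11 with a common total and did not pass with TMM scaling (-0.111, adjusted p = 0.088) or edgeR (-0.112, adjusted p = 0.0856). *Socs4* was higher by 0.12 (log2, SE 0.05, adjusted p = 0.0398), by 0.40 with a common total and by 0.19 with TMM scaling and with edgeR. It did not pass without a filter (adjusted p = 0.0622) or with the compared conditions alone (adjusted p = 0.062). It also did not pass without confined cPLA2WT replicate 1 (0.08, adjusted p = 0.219) or 2 (0.108, adjusted p = 0.113), LPS cPLA2WT replicate 2 (0.11, adjusted p = 0.063) or 3 (0.117, adjusted p = 0.0563), or LPS cPLA2KO replicate 1 (0.096, adjusted p = 0.086). *Socs7* differed by 0.02 (log2, SE 0.06, adjusted p = 0.812), a sign that turned without confined cPLA2WT replicate 3 (-0.05), and by 0.31 (adjusted p = 0.000279) with a common total. Confined cPLA2KO libraries differed from LPS libraries in 8 of 8 genes against 62.9% of all genes, 3 higher and 5 lower, and 3 higher and 4 lower with a common total, where *Socs7* went from -0.48 to -0.036 (adjusted p = 0.614). There *Socs1* (log2 -1.29, SE 0.05, adjusted p = 4.27e-15), *Socs2* (log2 -1.50, SE 0.04, adjusted p = 9.79e-18) and *Socs3* (log2 -3.15, SE 0.05, adjusted p = 3.42e-23) exceeded an absolute log2 of 1, against 23.6% of all genes.

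**Figure D2:**
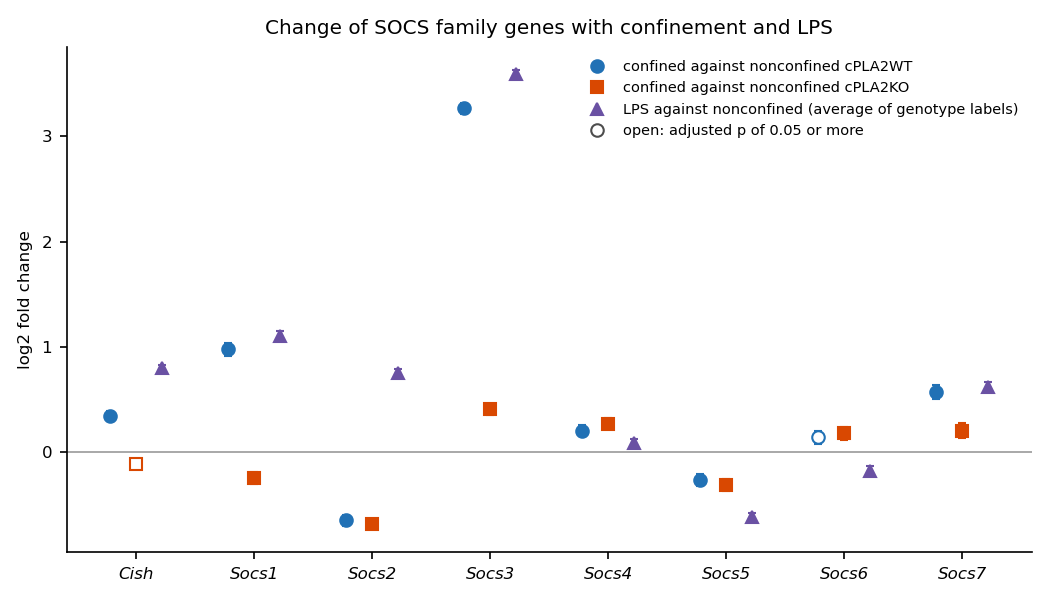
Log2 fold change (vertical axis) of each SOCS family gene (horizontal axis) with confinement in cPLA2WT cells, with confinement in cPLA2KO cells and with LPS over both genotype labels, with error bars of 1 SE from limma. *Socs3* changed by 3.265, 0.41 and 3.59, and open symbols mark genes with an adjusted p of 0.05 or more, which are *Cish* in cPLA2KO and *Socs6* in cPLA2WT cells.

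Levels were compared between genes as normalized counts per kilobase of the canonical transcript. In nonconfined cPLA2WT cells the order was *Cish* (3995 ± 193 per kilobase, SD, n = 3), *Socs2* (2423 ± 16.4), *Socs3* (1556 ± 79.8) and *Socs1* (1283 ± 67.5), none of which overlapped with its neighbour, followed at a distance by *Socs6* (350 ± 17.3), *Socs4* (328 ± 11.5), *Socs5* (258 ± 13.1) and *Socs7* (226 ± 6.62), where *Socs6* and *Socs4* overlapped. *Cish* and *Socs1* to *Socs3* stood above the other 4 genes in each of the 6 conditions. In confined cPLA2WT cells *Socs3* led with 14958 ± 534 per kilobase (SD, n = 3) before *Cish* with 5092 ± 265, and *Socs2* came after *Socs1*. In confined cPLA2KO cells *Cish* led with 3723 ± 131 per kilobase (SD, n = 3) before *Socs3* with 2160 ± 69.0. LPS libraries had 19227 ± 1047 per kilobase of *Socs3* (SD, n = 3) under the label cPLA2WT. *Socs3* made 14.9% of the summed level of the family per kilobase in nonconfined and 58.8% in confined cPLA2WT cells, 22.3% in confined cPLA2KO cells, and 56.6% and 55.9% in LPS libraries labelled cPLA2WT and cPLA2KO.

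**Figure D3:**
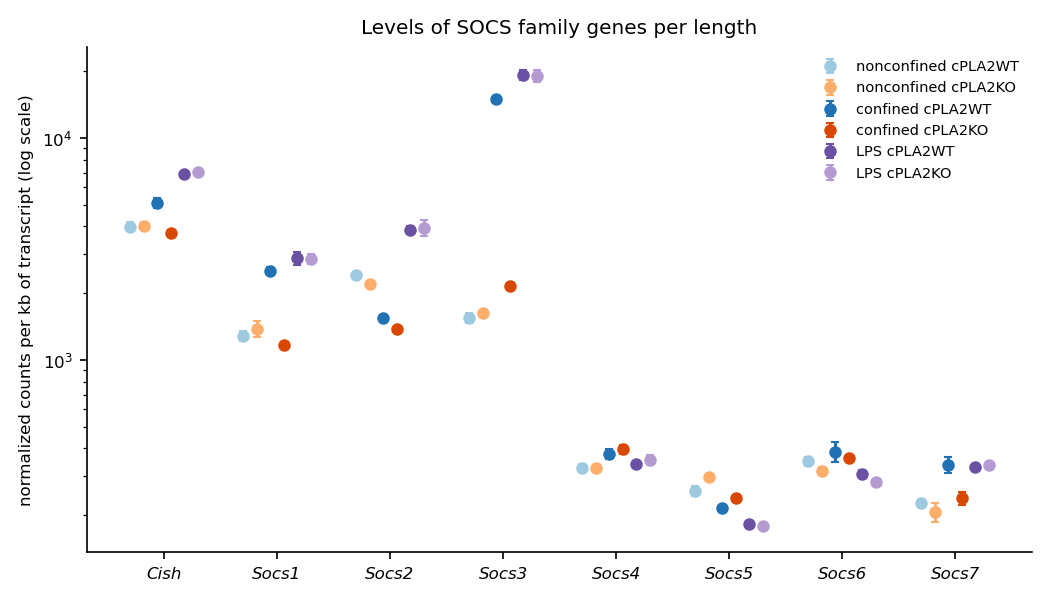
Normalized counts per kilobase of canonical transcript (vertical axis, log scale) for the SOCS family genes (horizontal axis) in the 6 conditions, as means of 3 libraries with error bars of 1 SD. *Cish*, *Socs1*, *Socs2* and *Socs3* have means of at least 1169 per kilobase in each condition and the other genes of at most 397.

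The genes have different structures in the genome. In the GENCODE annotation of GRCm39, *Socs3* lies on the minus strand of chromosome 11 from 117856905 to 117860898, and *Socs1* on the minus strand of chromosome 16 from 10600104 to 10603875, each with 2 exons in the canonical transcript. *Cish* lies on the plus strand of chromosome 9 from 107173225 to 107179983 with 3 exons, and *Socs2* on the minus strand of chromosome 10 from 95219523 to 95253929 with 4 exons. All 8 positions in the table overlap those of the annotation. Noncoding RNAs lie on the opposite strand within *Cish*, *Socs1*, *Socs2*, *Socs3*, *Socs5*, *Socs6* and *Socs7*, and the share of reads from the opposite strand was not tested. The processed pseudogenes *Gm50406* and *Gm6409* lie within *Socs6* on its own strand, and their share of its reads was not tested either. The libraries were prepared with stranded kits, and whether reads were counted by strand is not given in the sources used here. The table has rows that overlap *Socs2* and *Socs3*, with at most 138 and 52.3 normalized counts in a library.

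The promoters of *Socs3*, *Socs1* and *Cish* are known for STAT elements. Motifs were searched in the genes for which a promoter window was given, and a link between sites and mRNA levels was not tested. RefSeq promoter windows, 250 bases before to 50 after the RefSeq start, were given for 4 of the 8 genes (*Cish*, *Socs1*, *Socs3* and *Socs4*, windows listed on GRCm38.p6), and each window matched the GRCm39 sequence at 1 place. The RefSeq starts differ from the ends of the genes given above and lie 633 (*Cish*), 475 (*Socs1*) and 706 bases (*Socs3*) inside the GENCODE gene, so that all 300 bases of the windows of *Cish* and *Socs1* and 225 of that of *Socs3* are in GENCODE exons of some transcript. The motifs searched on both strands were the GAS motif, bound by STAT dimers, its form preferred by STAT5, the core of the interferon-stimulated response element (ISRE), and the NF-kB consensus. Of 32851 windows of this length, 8.3% held the GAS motif, 1.15% its STAT5 form, 3.44% the ISRE core and 8.46% the NF-kB consensus. *Cish* had 2 GAS matches, of which 1 is also the STAT5 form, starting at bases 1 and 12 counted from the RefSeq start. *Socs3* had 1 GAS match 154 bases before its RefSeq start, and *Socs1* had 2 ISRE matches that begin 83 and 77 bases before its RefSeq start and overlap each other. No match of the searched motifs was found in the window of *Socs4*, and the NF-kB consensus had no match in the 4 windows. A match is a description of letters and does not show that a factor binds or that the site lies in a promoter. The 30 bases around the matches are printed 5′ to 3′ on the strand of the gene, with the matches in capitals, for *Cish* at chr9:107173853-107173882 (plus strand), *Socs1* at chr16:10603461-10603490 (minus strand) and *Socs3* at chr11:117860327-117860356 (minus strand) of GRCm39.
Cish: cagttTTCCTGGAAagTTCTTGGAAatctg
Socs1: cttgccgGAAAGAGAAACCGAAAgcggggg
Socs3: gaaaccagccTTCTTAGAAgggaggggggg

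The kinases and factors upstream of the family were counted from a list of 11 JAK and STAT genes. With confinement, 9 of 11 rose in cPLA2WT cells (7 higher and 1 lower with a common total), where 56.6% of all genes passed in either direction, whereas in cPLA2KO cells 4 rose and 5 fell (46.3% of all genes passed). The interaction passed for 9 of 11 genes, against 25.8% of all genes, all with a negative sign, and its median was -1.27 (log2) beside 0.05 over all genes. *Stat3*, the factor that IL-6 and IL-10 activate, rose from 4890 to 15785 normalized counts in confined cPLA2WT cells (means of 3 libraries, log2 1.69, SE 0.07, adjusted p = 1.82e-14) and had an interaction of -1.42. *Stat5a*, which GM-CSF activates, rose by a log2 value of 1.765 in cPLA2WT cells (adjusted p = 8.94e-18) and of 2.865 with LPS (adjusted p = 1.06e-24), and 11 of 11 genes of the list rose with LPS, where 71.5% of all genes passed. The row of *Jak3* is shared with *Insl3*, so its reads are not those of 1 gene alone.

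Cytokines whose receptors use JAK kinases made a list of 23 genes, of which 20 were tested. With confinement 19 of 20 rose in cPLA2WT cells (56.6% of all genes passed), and 14 rose and 3 fell in cPLA2KO cells (46.3% of all genes). The interaction passed for 17 of 20, against 25.8% of all genes, all negative, with a median of -2.585 (log2). *Il6*, a ligand of gp130 receptors, had a mean of 83.5 normalized counts in nonconfined and 12859 in confined cPLA2WT cells, 119 and 290 in the same order in cPLA2KO cells, and 40383 in LPS cPLA2WT libraries. *Lif*, another ligand of gp130 receptors, had means of 418 and 3388 in cPLA2WT and of 432 and 454 in cPLA2KO cells. *Il10*, which signals through STAT3, had means of 0.0 and 1493 in cPLA2WT and of 1.04 and 14.5 in cPLA2KO cells. *Csf2*, which encodes GM-CSF, was low in all but LPS libraries, with a mean of 39.6 in confined cPLA2WT and of 1225 in LPS cPLA2WT libraries. With LPS, 19 of 20 cytokines rose, against 71.5% of all genes that passed. The row of *Clcf1* is shared with *Pold4*.

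Of 26 receptor chains, 20 rose and 3 fell with confinement in cPLA2WT cells (13 and 4 with a common total), against 56.6% of all genes that passed, and 14 rose and 5 fell in cPLA2KO cells, against 46.3%. The interaction passed for 15, against 25.8% of all genes, of which 13 were negative (12 of 17 with a common total). *Il2ra*, a chain of the IL-2 receptor, rose by a log2 value of 1.055 in cPLA2WT cells (adjusted p = 1.57e-12) and fell in cPLA2KO cells (log2 -1.104, adjusted p = 2.3e-12). *Il4ra*, which activates STAT6, rose by a log2 value of 1.565 in cPLA2WT cells (adjusted p = 1.34e-14) and of 0.515 in cPLA2KO cells (adjusted p = 1.55e-06). With LPS 19 chains rose and 4 fell, a split of 13 and 9 with a common total, and 71.5% of all genes passed.

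Other restraints of JAK-STAT signalling were listed as 11 phosphatases, PIAS proteins, an adaptor and a deISGylase. Of these 6 rose and 3 fell with confinement in cPLA2WT cells (4 and 4 with a common total), 4 rose and 4 fell in cPLA2KO cells (3 and 5), and the interaction passed for 4, of which 3 were negative (2 of 4 with a common total, 3 of 3 with TMM scaling). *Usp18*, which encodes the deISGylase that also blocks the interferon receptor, rose from a mean of 4928 to 13805 normalized counts in cPLA2WT cells (log2 1.485, adjusted p = 1.14e-17) and fell from 4722 to 1609 in cPLA2KO cells (log2 -1.55, adjusted p = 3.73e-17). *Ptpn2*, a phosphatase of JAK1 and STAT proteins, rose by log2 values of 0.85 and 0.24 in cPLA2WT and cPLA2KO cells (adjusted p = 1.03e-10 and 0.00305). *Ptpn6*, which encodes SHP-1, fell in the same order (log2 -0.72 and -0.68, adjusted p = 9.45e-13 and 7.27e-12). With LPS 8 rose and 2 fell (6 and 5 with a common total). Of all genes 56.6%, 46.3%, 25.8% and 71.5% passed in these 4 comparisons, so that the 4 of 11 interactions are near the share of all genes.

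The partners that make a ligase of the SOCS box, 10 genes for elongins, cullins and the enzymes that add NEDD8, gave 6 higher and 1 lower with confinement in cPLA2WT cells, which became 2 and 4 with a common total. In cPLA2KO cells 4 rose and 1 fell (4 and 2 with a common total), and the interaction passed for 4, all negative (2 of 3 with a common total). *Arih2*, a ligase that works with CUL5, rose by log2 values of 1.86 and 0.74 in cPLA2WT and cPLA2KO cells (adjusted p = 5.64e-16 and 6.07e-09). *Cul5*, a cullin of SOCS ligases, rose by log2 values of 0.345 and 0.411 (adjusted p = 0.00202 and 0.000615), and the former was 0.121 (adjusted p = 0.244) with a common total. With LPS 9 of 10 rose, which became 4 higher and 4 lower with a common total. The counts in cPLA2WT and cPLA2KO cells, 7 and 5 of 10, are near the 56.6% and 46.3% of all genes, and the interaction and LPS counts stand beside 25.8% and 71.5%. Of 27 other genes for SOCS box proteins 18 were tested, and 7 rose and 4 fell with confinement in cPLA2WT cells (5 and 7 with a common total), 5 rose and 5 fell in cPLA2KO cells, and 8 rose and 5 fell with LPS (4 and 12 with a common total). Their interaction passed for 3 genes, of which 2 were negative (1 of 4 with a common total). Beside 56.6%, 46.3%, 71.5% and 25.8% of all genes in the same order, these counts do not set the list apart. *Asb2*, which targets filamins, fell in cPLA2WT and cPLA2KO cells (log2 -2.54 and -2.27, adjusted p = 2.73e-20 and 9.45e-19), and *Spsb1*, which targets inducible nitric oxide synthase, rose by a log2 value of 2.08 in cPLA2WT cells (adjusted p = 6.58e-10).

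Downstream, 20 genes known to respond to STAT factors were listed, of which 16 rose and 3 fell with confinement in cPLA2WT cells, 5 rose and 10 fell in cPLA2KO cells, and 19 rose and 1 fell with LPS, against 56.6%, 46.3% and 71.5% of all genes that passed. The interaction passed for 19, against 25.8% of all genes, of which 18 were negative, with a median of -1.18 (log2) beside 0.05 over all genes. *Bcl3* and *Junb*, which respond to STAT3, had interactions of -2.04 (adjusted p = 1.18e-15) and -1.81 (adjusted p = 4.29e-14). *Gbp2* and *Irf1*, which respond to interferons, rose by log2 values of 1.63 and 1.07 in cPLA2WT cells (adjusted p = 1.64e-17 and 5.25e-10) and fell in cPLA2KO cells (log2 -1.09 and -0.505, adjusted p = 6.41e-14 and 4.56e-05). *Pim1*, which responds to STAT3 and STAT5, rose by log2 values of 1.28 and 0.28 in cPLA2WT and cPLA2KO cells (adjusted p = 2.59e-12 and 0.00385).

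Among 10554 genes with a symbol and a mean of at least 100 normalized counts, those most like a SOCS gene were taken by the root mean square difference of log2(normalized count + 1) over the 18 libraries, after removal of each gene's mean. For *Socs3*, whose own root mean square about its mean was 1.67, these were *Serpinb2* (difference 0.199), *Lif* (0.203) and *Traf1* (0.243). *Serpinb2*, which encodes a plasminogen activator inhibitor, had a mean of 1643 normalized counts in nonconfined and 21444 in confined cPLA2WT cells, and of 1598 and 2881 in cPLA2KO cells. *Socs1*, with 0.565 about its mean, was most like *Rnf114* (0.096), *Rnf34* (0.097) and *Aftph* (0.105). *Cish*, with 0.378 about its mean, was most like *Lcp1* (0.057), *Bfar* (0.058) and *Tab2* (0.059), and *Socs2*, with 0.583, was most like *Kcnk6* (0.105), *Pilrb2* (0.11) and *Pilrb1* (0.119). *Pilrb1* and *Pilrb2* are near copies of each other, so that reads counted for them are uncertain.

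Genes that mark cell types were summed in each library. By the Methods, the loosely attached cells were collected as DCs, leaving floating granulocytes and firmly attached macrophages aside. The 10 DC genes were all found, with *Cd74* as the most abundant, and their sums averaged 500810 and 606216 normalized counts in nonconfined, 464779 and 425453 in confined and 706334 and 708115 in LPS libraries of cPLA2WT and cPLA2KO. *Cd74*, *H2-Ab1*, *H2-Aa* and *H2-Eb1* made most of these sums. With confinement in cPLA2WT cells, *Ccr7* (15884 to 32945) and *H2-Eb1* (64792 to 67127) rose while the other genes of the list fell. Under the label cPLA2WT, *Cd209a* was lower with LPS (154 to 12.1), where the other genes were higher. The 10 neutrophil genes were all found, led by *S100a9*, and their sums were 256362, 261212 and 259414 in nonconfined and 171769, 164026 and 162005 in confined cPLA2WT libraries. They were 391758, 355729 and 380201 in nonconfined and 360085, 369626 and 355661 in confined cPLA2KO libraries, and 320899, 302510 and 304620 in LPS cPLA2WT and 288758, 324814 and 306521 in LPS cPLA2KO libraries. The sums were lowest in confined cPLA2WT libraries. The defining neutrophil gene *Ly6g* had means of 545, 221, 1101 and 812 normalized counts in nonconfined cPLA2WT, confined cPLA2WT, nonconfined cPLA2KO and confined cPLA2KO cells.

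The 8 eosinophil genes, led by *Prg2*, summed to 33856, 33739 and 33683 normalized counts in nonconfined and 9734, 9250 and 9146 in confined cPLA2WT libraries. The sums were 83247, 77302 and 79273 in nonconfined and 25119, 24797 and 25701 in confined cPLA2KO libraries, 47908, 27808 and 38449 in LPS cPLA2WT and 27806, 48166 and 39019 in LPS cPLA2KO libraries. *Siglecf* of this list did not follow the sums. Its means were 1402 in nonconfined and 1447 in confined cPLA2WT cells, and 943 and 1103 in cPLA2KO cells. The other genes of the list fell with confinement in both genotypes. Within each LPS label, the eosinophil sums, *Ddx3y* and *Socs3* ranked the libraries in the same order. The 8 genes of mast cells or basophils, led in confined cPLA2WT and LPS libraries by *Hdc*, ranged from 6886 to 19310 in sum, with 15515 to 16173 in confined cPLA2WT and 6886 to 7067 in confined cPLA2KO libraries. That order was due to *Hdc*, with means of 12370 and 1458 in these groups, and without it the sums were 3446 to 3577 and 5449 to 5627. The 10 macrophage genes, of which *Vsig4* was at 0 in each library, were led by *Adgre1*. In cPLA2WT and cPLA2KO libraries their sums averaged 16684 and 19810 in nonconfined, 13607 and 13489 in confined and 31277 and 30545 in LPS libraries, where *Marco* had means of 10615 and 10099, against 156 and 722 in nonconfined libraries. Of 8 genes of T or NK cells 7 were found, led by *Cd3g*, with mean sums of 2491 and 3055 in nonconfined, 777 and 1139 in confined and 479 and 495 in LPS libraries of cPLA2WT and cPLA2KO. *Cd3g* alone had means of 2306 and 2855 in nonconfined, 700 and 1030 in confined and 403.5 and 406.4 in LPS libraries. The sums thus mostly follow this gene, whereas *Cd8a* had its highest means in LPS libraries (23.05 and 26.25). The 5 B cell genes summed to 17.4 to 113. The part of these cells in the values of the SOCS genes was not tested, and in bulk RNA fewer cells of a type and less RNA per cell cannot be told apart.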

How the data were processed

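Poly(A) RNA of the 18 libraries was sequenced from both ends, and the labels name 2 kits without saying which made which library. The values are a deposited signal, gene counts that the authors divided by 1 DESeq2 size factor per library after mapping with STAR 2.7.5a to mm39 and counting with featureCounts 1.5.0 on the Mouse FAST DB annotation (R 3.5.3). All values (100.0%) became whole reads, within 1e-06, when multiplied by 1 factor per library, and these were used for edgeR 4.0.16 and DESeq2 1.42.0. The main fit took log2(normalized count + 1) for genes that reached 10 normalized counts in 3 or more libraries, in limma 3.58.1 (R 4.3.3) with 1 mean per condition and moderated variances, and p-values were adjusted over all 17875 genes by Benjamini-Hochberg. Passing means an adjusted p under 0.05. Scripts were tested on simulated data. Tables and figures were made with Python 3.11.15, pandas 2.3.3 and matplotlib 3.10.9.

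Alternatives were TMM scaling, a common total per library, other pseudocounts and filters, edgeR, DESeq2, fits of the compared conditions alone, a replicate number as a term, the thresholds of the study's methods, and each library left out in turn. Of each gene list, members averaging 100 or more normalized counts whose interaction was past an absolute log2 of 1 could be named, and, where these were fewer than 3, those with the largest change in confined cPLA2WT cells. The report names some of these, and a choice among them was made after their values were seen. The values of 1 gene that the rule marks are not reported here. The members and the lists were chosen with earlier results of these data known. No pair of libraries differed as little as reads drawn at random would, with a mean chi-square per gene of 3.74 or more within groups and 4.8 or more between groups.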

Additional observations from a re-analysis of the deposited data

Results flagged for a closer look

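Each result here is a log2 difference between the confinement response of cPLA2KO cells and that of cPLA2WT cells, taken from an interaction term with an adjusted p under 0.05, and that difference between groups is what flagged it. Only genes that the naming rule marks are listed, and the gene lists hold further genes whose interaction passed, 4 of them with a positive value. In the SOCS family the values were *Cish* -0.458, *Socs1* -1.219, *Socs3* -2.855 and *Socs7* -0.366. Among JAK kinases and STAT factors they were *Jak2* -1.272, *Stat2* -1.757, *Stat3* -1.416, *Stat4* -2.72 and *Stat5a* -1.515. Among cytokines they were *Il6* -5.967, *Il10* -7.327, *Il12a* -3.413, *Il12b* -6.66, *Il15* -2.083, *Il23a* -4.898, *Il27* -3.285, *Ebi3* -1.701, *Lif* -2.952, *Csf2* -2.865, *Csf3* -5.411 and *Tslp* -3.793. With 1 library left out at a time, *Il10* ranged from -7.668 to -6.644, *Il12a* from -3.909 to -2.781, *Csf3* from -6.084 to -4.729 and *Tslp* from -4.32 to -2.869, and *Il23a* did not pass with edgeR (-4.334, adjusted p = 0.0856). *Il10* and *Csf2* had a mean of 0.0 in nonconfined cPLA2WT cells, so the pseudocount enters the size of their values. It can also enter the values of other cytokines with few counts in a group. With 1 library left out, the log2 change with confinement in cPLA2WT cells ranged from 11.738 to 12.747 for *Csf3*. It ranged from 3.726 to 4.614 for *Il12a* and from 5.525 to 6.676 for *Tslp*. The receptor chains *Il2ra*, *Il4ra* and *Il15ra* had -2.159, -1.05 and -1.845. Among other negative regulators and ligase partners, *Usp18* had -3.038, *Ptpn2* -0.616, *Arih2* -1.116 and *Ube2f* -0.6. Among other SOCS box genes *Spsb1* had -2.246, *Wsb1* -0.218 and *Asb2* 0.266, the 1 positive value among those listed, and that of *Wsb1* was -0.03 (adjusted p = 0.777) with a common total and did not pass in 4 fits with a library left out. Genes known to respond to STAT factors had -1.006 (*Pim1*), -1.477 (*Pim2*), -2.038 (*Bcl3*), -1.81 (*Junb*), -1.574 (*Irf1*), -1.346 (*Irf9*), -2.718 (*Gbp2*), -4.739 (*Cxcl9*), -6.037 (*Cxcl10*), -1.374 (*Tap1*) and -1.37 (*Ccnd2*). Genotype and marrow donor cannot be told apart in these libraries, and the origin of the differences was not tested.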

How the results depend on the processing

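Fold changes of single genes kept direction and call in 4061 results under the alternatives, gained a call in 21, lost it in 73 and turned direction in 17, and 910 counts stayed within 1.5 times the reported count while 21 moved further. With the same total per library, the log2 value turned to -0.02 for *Socs4* and -0.083 for *Socs6* in confined against nonconfined cPLA2WT cells, to 0.154 for *Socs2* and 0.139 for *Socs5* in the interaction, to 0.057 for *Socs6* between genotypes in confined cells, to -0.409 for *Socs4* and -0.47 for *Ptpn6* with LPS, and to 0.106 for *Socs1* in confined cPLA2WT against LPS cells. *Ptpn6* with LPS, 0.026 in the reported fit, was -0.021 with TMM scaling, -0.022 with edgeR and -0.003 with DESeq2, and the interaction of *Socs6* was -0.002 with edgeR. SOCS genes changed more than 2-fold numbered 2 instead of 1 in confined cPLA2WT cells and 1 instead of 2 in LPS against nonconfined libraries labelled cPLA2KO, with TMM scaling and with edgeR. With the same total they numbered 1 instead of 2 between genotypes in confined cells. The fit of the compared conditions alone gave 0 instead of 1 gene between genotypes in nonconfined cells. An unadjusted p of at most 0.05 with a fold of at least 1.5 gave 3 instead of 7 SOCS genes for confinement in cPLA2WT cells, 1 instead of 7 in cPLA2KO cells, 2 instead of 4 for the interaction, 0 instead of 1 and 2 instead of 6 between genotypes in nonconfined and confined cells, 4 instead of 7 for LPS against nonconfined cPLA2WT, and 1 instead of 7 and 4 instead of 8 for confined cPLA2WT and cPLA2KO against LPS cells, where the required fold removes small changes. A filter of 100 normalized counts left 7 instead of 11 other SOCS box genes past the test in confined cPLA2WT cells, where fewer genes were tested. Leaving out 1 library at a time gave ranges of 1 to 2 SOCS genes changed more than 2-fold in confined cPLA2WT cells, of 1 to 2 with LPS against nonconfined cPLA2KO, and of 0 to 1 gene past the test between genotypes in nonconfined cells. Log2 ranges that crossed 0 were -0.025 to 0.086 for *Jak2* and -0.282 to 0.01 for *Spsb1* in confined against nonconfined cPLA2KO cells, -0.026 to 0.12 for *Socs6* and -0.001 to 0.161 for *Cul5* in the interaction, and -0.049 to 0.056 for *Socs7* in confined cPLA2WT against LPS cells. For the other changes the cause was not tested. With a replicate block, *Socs4* with LPS had an adjusted p of 0.0518 at a log2 value of 0.088, *Socs5* between genotypes in confined cells 0.0522 at 0.153, and *Cish* in confined cPLA2KO cells 0.045 at -0.108. Libraries with the same number correlated at -0.142 to 0.338 in their deviations from group means, and in no pair of groups were all above 0.1, so the numbers were not taken to pair libraries. Depth limits genes near 10 counts, not the SOCS genes.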
